A study of Mus musculus with 4 samples.

Results

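Matricellular proteins are secreted proteins that bind the extracellular matrix and modulate how cells attach, migrate and signal rather than building the matrix itself. Genes for several of them are targets of YAP and TAZ, transcriptional coactivators that the Hippo kinases hold outside the nucleus and that enter it and bind TEAD factors when cells are under mechanical tension. In skeletal muscle these genes are known for responding to load and injury. The 10 genes described here were chosen by their names in the array files. They are the CCN genes Cyr61, Ctgf and Nov (now named Ccn1, Ccn2 and Ccn3), the Hippo regulator gene Amotl2, tenascin C (Tnc), the thrombospondins Thbs1 and Thbs2, periostin (Postn), and Sparc and Fstl1, which share a follistatin-like module. They were represented by 12 of 39429 probes and 10 of 31893 genes.

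The tissue was mouse 3D engineered muscle, labelled skeletal muscle, that had either received no acute EPS or a 30-min acute EPS. EPS is read here as electrical pulse stimulation, which is used to make cultured muscle contract. Stimulated tissue was taken at 0 min or at 5 h after the stimulation ended, and unstimulated tissue labelled with each of those times served as its negative control. Strain, age, cell source and number of tissues per array are not given in the sources used here. Each group had 1 single-colour array and no replicate, so the values below describe 4 arrays, no difference between groups could be tested, and the spread between tissues is unknown.

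A level is given as log2 of the processed signal of a spot relative to the 75th percentile over all non-control spots of its array. That percentile ranged from 1093 to 1362.5 at 0 min and from 1280.3 to 1491.9 at 5 h. Of the 16 skeletal muscle markers, 16 were well above background on every array, with medians between 5.47 and 5.63. Of 12 fibroblast markers 11 were. Markers of other cell types were mixed. The endothelial markers Cdh5 and Tie1, the leukocyte marker Ptprc, the adipocyte marker Adipoq and the neuron marker Rbfox3 did not pass the scanner's background test anywhere, but Kdr, Pecam1 and Vwf, Itgam, Csf1r, Cd3e and Cd68, Pparg and Fabp4, and Snap25 and Tubb3 of the same lists passed it on all 4 arrays. All 12 member probes passed it on all 4 arrays. In bulk tissue, fewer cells of a type and less RNA per cell cannot be told apart. Spot error is the standard deviation, between spots, of the log2 difference of probes printed 10 times. Its 95th percentile was 0.27 and 0.26 for EPS at 0 min and 5 h, 0.28 and 0.21 for time without and after EPS, and 0.37 for the difference of the EPS effects. It covers spots of 1 labelled RNA and not the spread between tissues.

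The promoters of 2 of the 7 members with a promoter window held the letters of the core TEAD element. They are shown because both genes are YAP targets whose levels were higher with EPS at 0 min. RefSeq windows (build GRCm38.p6) run from 250 bases before to 50 bases after a start site, and 7 of the 10 members matched at least 1 of 9 windows. Ctgf, Nov and Thbs1 had no window, so their promoters were not searched. Capitals mark GGAATG on either strand (read as CATTCC on the opposite one) and TATAAA on the gene's strand.
Cyr61 promoter, chr3:145649936-145650235, minus strand: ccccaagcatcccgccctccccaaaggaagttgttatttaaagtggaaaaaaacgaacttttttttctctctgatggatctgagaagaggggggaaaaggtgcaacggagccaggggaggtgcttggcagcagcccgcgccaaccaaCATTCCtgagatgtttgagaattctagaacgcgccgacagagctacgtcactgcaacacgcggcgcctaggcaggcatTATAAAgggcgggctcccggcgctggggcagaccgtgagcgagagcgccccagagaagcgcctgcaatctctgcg
Amotl2 promoter, chr9:102717554-102717853, plus strand: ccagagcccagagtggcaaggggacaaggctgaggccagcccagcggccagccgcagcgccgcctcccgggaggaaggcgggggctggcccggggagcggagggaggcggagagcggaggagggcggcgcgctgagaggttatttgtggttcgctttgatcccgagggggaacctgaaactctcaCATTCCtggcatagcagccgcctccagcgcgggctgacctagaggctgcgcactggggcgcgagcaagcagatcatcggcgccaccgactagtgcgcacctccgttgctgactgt
Counted from the start site, the element lay at -103 to -98 in Cyr61 and at -65 to -60 in Amotl2. GGAATG was found in 14.7% of all 32851 RefSeq windows of this length. For GGAATG and TATAAA the background counts single windows, whereas members are counted as genes with a match in any of their windows. TATAAA was found in windows of Cyr61, Tnc and Postn, and in 8.32% of all windows. In Cyr61 it lay at -25 to -20 and in 1 Postn window at -26 to -21. In the Tnc windows it lay farther from the start site, at -126 to -121 and at -205 to -200. The letters of the CArG box, the binding site of SRF, of the AP-1 site TGANTCA, of the CRE TGACGTCA and of the hypoxia element core ACGTG were searched on both strands and were in none of the members' windows, against 1.63%, 7.81%, 1.79% and 19.6% of all windows. A match is a match of letters and not a measured binding site.

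Directly after stimulation the CCN genes Cyr61 and Ctgf and the Hippo regulator gene Amotl2 were higher with EPS than without, and the genes for tenascin C, periostin, Sparc, Thbs2 and Fstl1 differed by less than the spot error. At 5 h Ctgf, Tnc, Thbs1 and Amotl2 were higher with EPS, and Cyr61 was within the spot error of its control. Nov and, by a narrow margin, Sparc were lower at that time. For scale, 89.62% of all genes at 5 h lay below the difference of Cyr61 (0.24) and 15.73% below that of Sparc (-0.27). At 0 min 89.12% lay below that of Thbs1 (0.26) and 12.88% below that of Nov (-0.26), both just within the error. Between the unstimulated arrays, Cyr61 and Ctgf were both more than 3-fold lower at 5 h than at 0 min. Of the 10 members, 1 was at least 2-fold higher with EPS at 0 min (Cyr61, against 0.549% of 18590 genes measured) and 1 at 5 h (Tnc, against 0.690% of 18543). None was 2-fold lower at either time, against 0.791% and 0.523% of genes. In either direction the background was 1.34% at 0 min and 1.21% at 5 h. The median difference of the members was 0.10 at 0 min, where 7 of 10 lay above 0, and 0.21 at 5 h, where 7 of 10 did. Over all genes the medians were 0.02 and -0.03, with 54.5% and 43.4% of genes above 0.

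**Figure D1:**
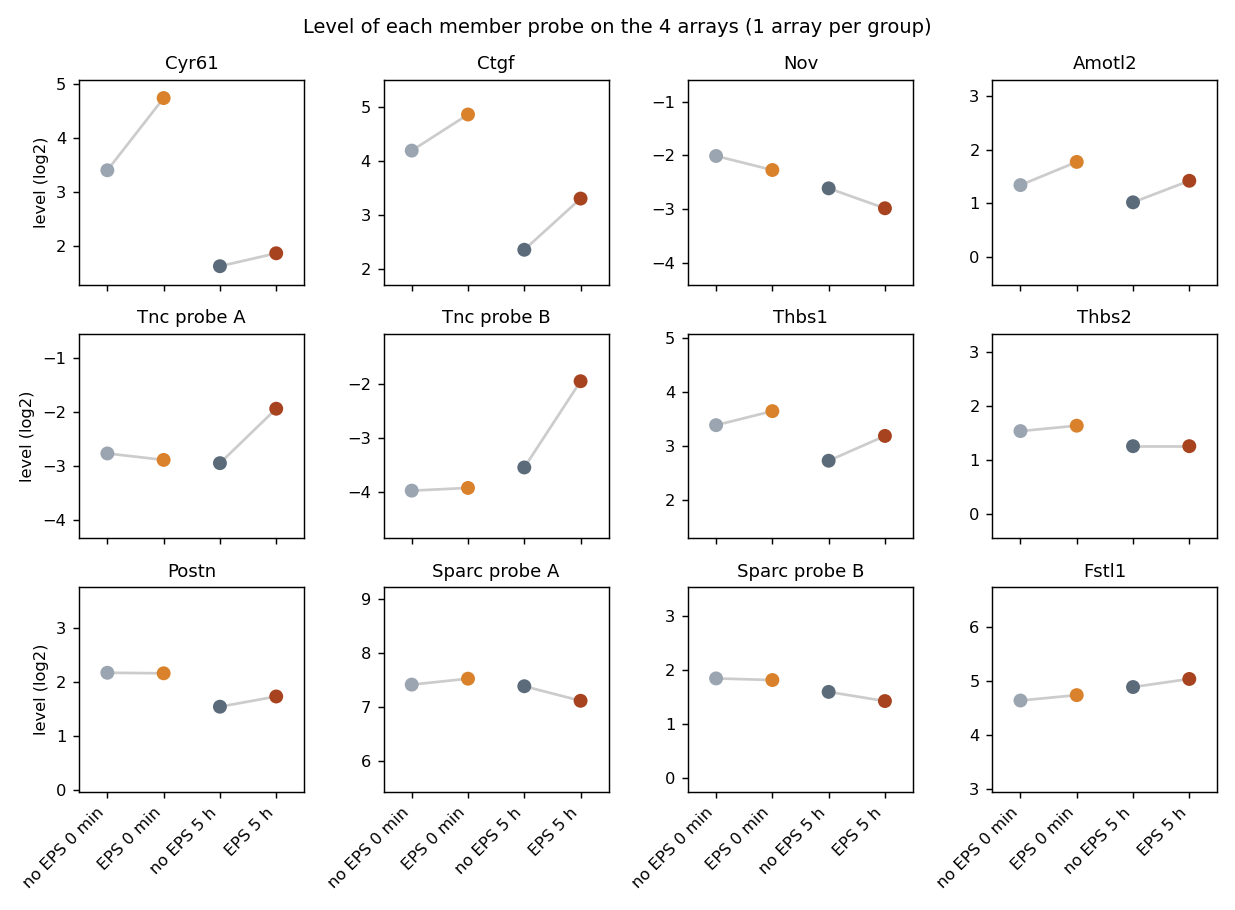
Level (log2 of signal relative to the array's 75th percentile) of each of the 12 member probes on the 4 arrays, 1 point per array, with grey lines joining the arrays of 1 time point; every panel spans the same height on the log2 scale. Cyr61 spans 3.12 over the arrays and Ctgf 2.51, Tnc stands out on the EPS 5 h array alone, and Sparc, Thbs2 and Fstl1 span 0.42 or less.

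Cyr61 encodes a secreted ligand of integrins that is an immediate early gene of serum and stretch. Its level was 3.40 without EPS and 4.74 with EPS at 0 min, and 1.62 without EPS and 1.86 with EPS at 5 h (probe at chromosome 3, 145310187 to 145310246, build mm9). Both 0 min arrays were high and both 5 h arrays low, with the EPS 0 min array highest. The EPS difference at 0 min was 1.34, or 2.53-fold, 5.02-fold the spot error at its 95th percentile, and rank 51 from the top among 18590 genes. At 5 h it was 0.24, or 0.91 times that error. The 5 h arrays were thus neighbours that the spot error does not separate, and the other gaps in the order of the arrays exceeded it.

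Ctgf, connective tissue growth factor, is a fibrogenic CCN protein and a standard readout of YAP and of TGF-beta. Its level was 4.19 without EPS and 4.86 with EPS at 0 min, and 2.35 and 3.30 at 5 h (chromosome 10, 24318281 to 24318340, mm9). Its order of arrays was that of Cyr61, but here every gap between neighbours exceeded the spot error, the 5 h pair included. The EPS difference was 0.68 (1.60-fold) at 0 min and 0.95 (1.94-fold) at 5 h, ranks 265 and 146 from the top, and neither reached 2-fold. The EPS difference of Cyr61 exceeded that of Ctgf by 0.66 at 0 min and fell short of it at 5 h, with a difference of -0.72. Spot error for such a contrast of 2 genes would be 0.38 and 0.37. Ctgf was thus higher with EPS beyond the spot error at both times and Cyr61 at 0 min, and the larger difference was that of Cyr61 at 0 min and that of Ctgf at 5 h.

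Nov, the third CCN member, which is known to oppose growth in several cell types, ran the other way. Its level was -2.01 without EPS and -2.27 with EPS at 0 min, and -2.61 and -2.98 at 5 h (chromosome 15, 54584204 to 54584263, mm9). It was lower with EPS at both times, by a difference of -0.26 at 0 min, which is within the spot error, and of -0.37 at 5 h, which is 1.40 times it. Amotl2, an angiomotin that binds YAP and is itself a YAP target, had levels of 1.34 without EPS and 1.77 with EPS at 0 min, and of 1.02 and 1.42 at 5 h (chromosome 9, 102635025 to 102635084, mm9). Its EPS differences of 0.42 and 0.40 were 1.58 and 1.55 times the spot error and close to each other in size.

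Tnc encodes tenascin C, a matrix glycoprotein with little presence in resting adult muscle that appears in injured or loaded muscle and at tendon junctions. It was read by 2 probes on chromosome 4, which are shown because they agree on the direction at 5 h and differ in its size. Probe A is the brighter one and stands for the gene; the listed interval of probe B spans 764 bases of build mm9 for a 60-base probe, so its sequence is not contiguous in the genome. Both are printed as the array files give them, which list both on the minus strand, and each had at least 1 reading frame without a stop codon. Which exons they lie in was not analysed here.
Tnc probe A, chr4:63643728-63643787: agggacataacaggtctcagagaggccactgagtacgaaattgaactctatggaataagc
Tnc probe B, chr4:63674248-63675011: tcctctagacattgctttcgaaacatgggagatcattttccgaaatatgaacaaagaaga
Probe A had levels of -2.77 without EPS and -2.89 with EPS at 0 min, and of -2.95 and -1.94 at 5 h. Probe B had levels of -3.97 and -3.92 at 0 min, and of -3.54 and -1.94 at 5 h. On both probes the EPS 5 h array alone was high. The EPS difference at 5 h was 1.01 (2.01-fold) by probe A, rank 128 of 18543, and 1.60 (3.03-fold) by probe B, and at 0 min it was -0.12 and 0.05, both within the spot error. Tnc was dim: the signals of probe A were 199.7 without and 147.3 with stimulation at 0 min, and 165.6 without and 388.4 with it at 5 h. Under normexp background correction the difference at 5 h was 0.78 by probe A and 0.99 by probe B, both under 2-fold.

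Thrombospondins are large matricellular glycoproteins; Thbs1 activates latent TGF-beta and inhibits angiogenesis. The levels of Thbs1 were 3.38 without EPS and 3.64 with EPS at 0 min, and 2.72 and 3.18 at 5 h (chromosome 2, 117952585 to 117952644, mm9). The unstimulated 5 h array was the low one. The EPS difference was 0.26 at 0 min, within the spot error, and 0.46 (1.37-fold) at 5 h, 1.76 times it. Thbs2, its paralogue, had levels of 1.54 and 1.64 at 0 min and of 1.26 and 1.26 at 5 h (chromosome 17, 14804526 to 14805789, mm9, an interval of 1264 bases), and no gap between neighbouring arrays exceeded the spot error.

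Periostin, Sparc and Fstl1 complete the set. Postn encodes a protein of collagen-rich tissue that supports collagen assembly, and its levels were 2.17 and 2.16 at 0 min and 1.54 and 1.73 at 5 h, without and with EPS (chromosome 3, 54194840 to 54194899, mm9). The 0 min arrays were higher than the 5 h arrays, and within each time the arrays differed by less than the spot error. Sparc encodes a collagen-binding, calcium-binding glycoprotein. Its brighter probe had levels of 7.42 without EPS and 7.53 with EPS at 0 min, and of 7.39 and 7.12 at 5 h (chromosome 11, 55208939 to 55208998, mm9). The EPS difference was 0.10 at 0 min and -0.27 at 5 h, the latter 1.02 times the spot error. Under quantile normalization it was -0.10 at both times, within that error. The dimmer Sparc probe (55208003 to 55208061) differed by -0.03 and -0.17, both within it. Fstl1, a secreted glycoprotein described as a myokine, had levels of 4.64 and 4.74 at 0 min and of 4.89 and 5.04 at 5 h (chromosome 16, 37836492 to 37836551, mm9). Its EPS differences of 0.10 and 0.16 were within the spot error, and the first turned to -0.02 under quantile normalization.

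**Figure D2:**
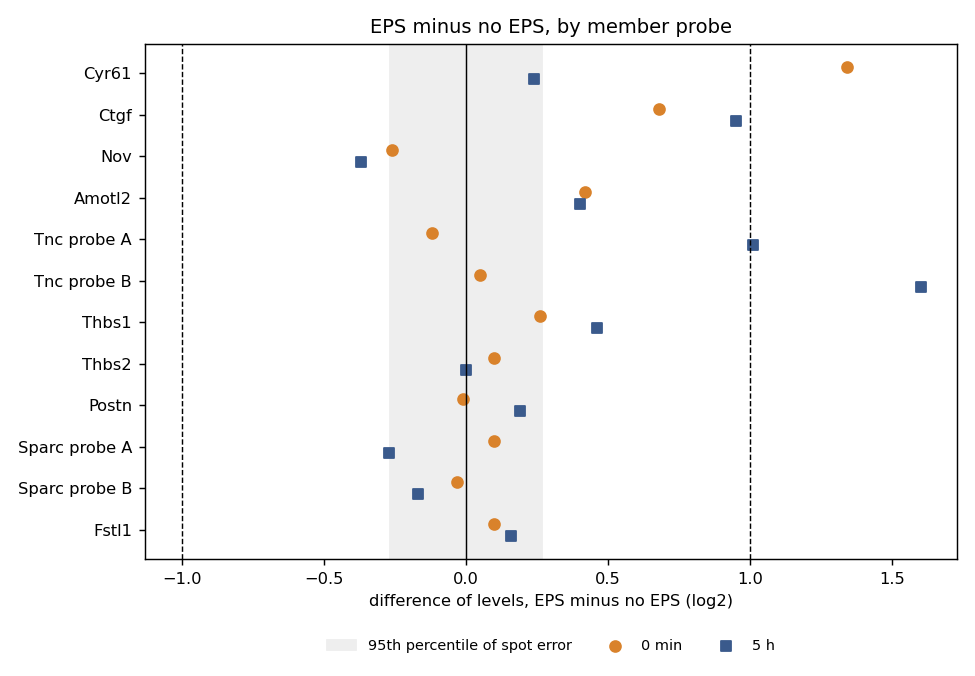
Difference of levels with EPS minus without EPS (log2) for each member probe at 0 min (circles) and 5 h (squares); dashed lines mark 2-fold, and the grey band is the 95th percentile of the spot error (0.27). Cyr61 at 0 min (1.34) and both Tnc probes at 5 h (1.01 and 1.60) lie past 2-fold, and Ctgf and Amotl2 lie to the right of the band at both times.

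The EPS effects at the 2 times were set against each other as a difference of differences, 5 h minus 0 min. Of the 10 members 2 stood at least 2-fold from 0 in either direction, Tnc at 1.13 and Cyr61 at -1.10, against 1.99% of 18109 genes. Tnc probe B stood at 1.55, and under normexp the Tnc probes stood at 0.84 (A) and 0.88 (B), both under 2-fold. Ctgf stood at 0.28, Thbs1 and Postn at 0.20 and Amotl2 at -0.02, all within the spot error of 0.37. Of the members 5 of 10 lay above 0, against 41.9% of genes. Their median was 0.02, and that of all genes -0.05.

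Without EPS, 2 of the 10 members were at least 2-fold lower at 5 h than at 0 min, where 2.96% of 18488 genes were, and none was 2-fold higher, where 1.74% were (4.70% in either direction). These were Ctgf, at -1.84 (3.57-fold lower, rank 72 from the bottom), and Cyr61, at -1.78 (3.44-fold lower, rank 85). Thbs1 (-0.66), Postn (-0.63), Nov (-0.60) and Amotl2 (-0.32) were also lower beyond the spot error. Of all genes, 7.37% lay below the value of Thbs1 and 21.32% below that of Amotl2. Fstl1 was above 0, at 0.25 and within the spot error. The Tnc probes differed in sign, with -0.18 by probe A, within the error, and 0.43 by probe B, 1.52 times it, and their mean stood at 0.13. The median of the members was -0.46, and that of all genes -0.02, with 47.5% of genes above 0. The unstimulated 0 min array is also the control of the EPS comparison at 0 min, so a high value on it enters both.

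After EPS Cyr61 stood at -2.88 between 0 min and 5 h (7.38-fold lower, rank 15 from the bottom of 18469 genes), and Ctgf stood at -1.56 (2.94-fold lower). They were the 2 members at least 2-fold lower, where 3.64% of genes were lower and 2.39% higher (6.04% in either direction). Tnc was higher, by 0.95 with probe A and 1.98 with probe B. The value of probe A passed 2-fold under quantile normalization (1.02), as did the mean of both probes (1.46), and was 0.67 under normexp. Fstl1 was higher by 0.30, and Nov (-0.71), Thbs1 (-0.46), Postn (-0.43), Sparc (-0.40), Thbs2 (-0.39) and Amotl2 (-0.34) were lower, all beyond the spot error of 0.21. Of all genes, 8.52% lay below the value of Nov, 27.05% below that of Amotl2 and 80.98% below that of Fstl1. Under quantile normalization the Sparc value was -0.09, within the spot error. The median of the members was -0.42, with 2 of 10 above 0, and that of all genes -0.08, with 42.5% above 0. Over all genes 442 were at least 2-fold higher and 673 lower, a split that was 529 and 517 under quantile normalization.

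**Figure D3:**
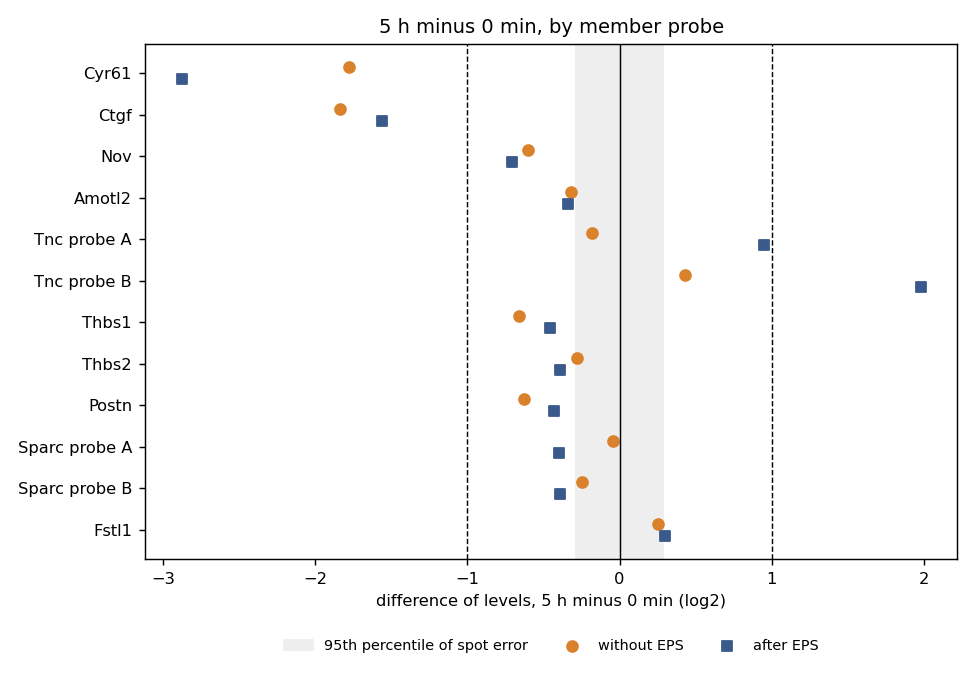
Difference of levels at 5 h minus 0 min (log2) for each member probe without EPS (circles) and after EPS (squares), with 2-fold as dashed lines and the larger 95th percentile of spot error (0.28) as the grey band. Cyr61 and Ctgf lie left of -1 in both, the points of Cyr61 stand at -1.78 and -2.88, and those of Ctgf at -1.84 and -1.56.

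A published signature of YAP and TAZ targets, which holds 3 of the members, had a median EPS difference of 0.12 at 0 min and 0.07 at 5 h. Of its 22 genes 1 was at least 2-fold higher at 0 min (Cyr61) and 1 lower, against 0.549% and 0.791% of all genes. At 5 h 2 were higher, against 0.690%. The lower one was Rbms3, an RNA-binding protein gene, at -1.24, but -0.67 with the mean of its probes and -0.88 under normexp. Those higher at 5 h were Igfbp3, an insulin-like growth factor binding protein gene, at 1.18 (2.26-fold), and Nuak2, a kinase of the AMPK family, at 1.03 (2.04-fold), or 0.87 under normexp. Igfbp3 levels were -2.23 without EPS and -1.80 with EPS at 0 min, and -0.57 and 0.61 at 5 h, so it was also higher at 5 h than at 0 min. Leaving out the 3 members, the median difference of the other 19 genes was 0.05 at 0 min and 0.03 at 5 h, with 10 of 19 above 0 each time. Ankrd1, a muscle ankyrin repeat protein of this signature that was picked out after its values were seen, differed by 0.21 at both times.

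Genes of the Hippo pathway itself, its kinases, scaffolds, YAP and TAZ (Yap1, Wwtr1) and TEAD factors, were all 24 measured. None was 2-fold different with EPS, against 1.34% of all genes at 0 min and 1.21% at 5 h. The median difference of the 24 was 0.05 at 0 min and -0.01 at 5 h. The largest differences were those of the TEAD cofactor Vgll4 (-0.43 at 0 min), the kinases Stk4 (-0.26 at 0 min) and Taok1 (-0.26 at 5 h) and the scaffold Nf2 (0.26 at 5 h).

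Targets of SRF and its actin-regulated coactivators, the MRTF proteins, which also act on CCN genes, were listed together with Srf, Mrtfa and Mrtfb themselves. Of this list, 20 of 22 measured genes lay above 0 with EPS at 0 min, against 54.5% of all genes. Of the 22, 12 were higher beyond the spot error and 1 was lower. Of all genes, 89.12% lay below the difference of Thbs1 (0.26) and 12.88% below that of Nov (-0.26), both just within that error. At least 2-fold higher, as 0.549% of all genes were, were 3 of the 22: the early transcription factor genes Fos (1.24), Fosb (1.22) and Egr2 (1.01, but 0.95 under quantile normalization and 0.94 under normexp). The median of the list was 0.29 at 0 min and 0.04 at 5 h. At 5 h 11 of 21 lay above 0 and none was at 2-fold, against 1.21% of all genes. With time, the median was -0.49 without EPS (5 of 21 at least 2-fold lower, against 2.96% of all genes) and -0.82 after EPS (8 of 21, against 3.64%).

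Other members of the CCN, thrombospondin, tenascin and SPARC families had a median EPS difference of 0.05 at 0 min (14 of 21 measured) and 0.03 at 5 h (13 of 21). The 1 gene at 2-fold, as 1.21% of all genes were at 5 h, was Tnxb, tenascin X, at -1.84 at 5 h, or -0.84 under normexp. It was dim, with a level of -4.05 on the unstimulated 5 h array and between -6.37 and -5.89 on the others. Receptors of matricellular proteins, mostly integrins, had medians of -0.07 and -0.06. None was at 2-fold, against 1.34% of all genes at 0 min and 1.21% at 5 h. Itgb3, the beta chain of the vitronectin receptor, was nearest to 2-fold, with a difference of -0.50 at 0 min and 0.97 at 5 h (1.26 at 5 h with the mean of its probes). Itgb8 differed by -0.71 and -0.75 (-0.14 and -0.46 under normexp), the heparan sulphate proteoglycan Sdc1 by 0.20 and 0.66, and Notch1 by -0.51 and -0.69, the value at 0 min turning to 0.58 with the mean of its probes. TGF-beta ligands and matrix targets had medians of 0.07 and 0.03, with 13 of 20 measured genes above 0 at 0 min and 10 of 19 at 5 h.

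**Figure D4:**
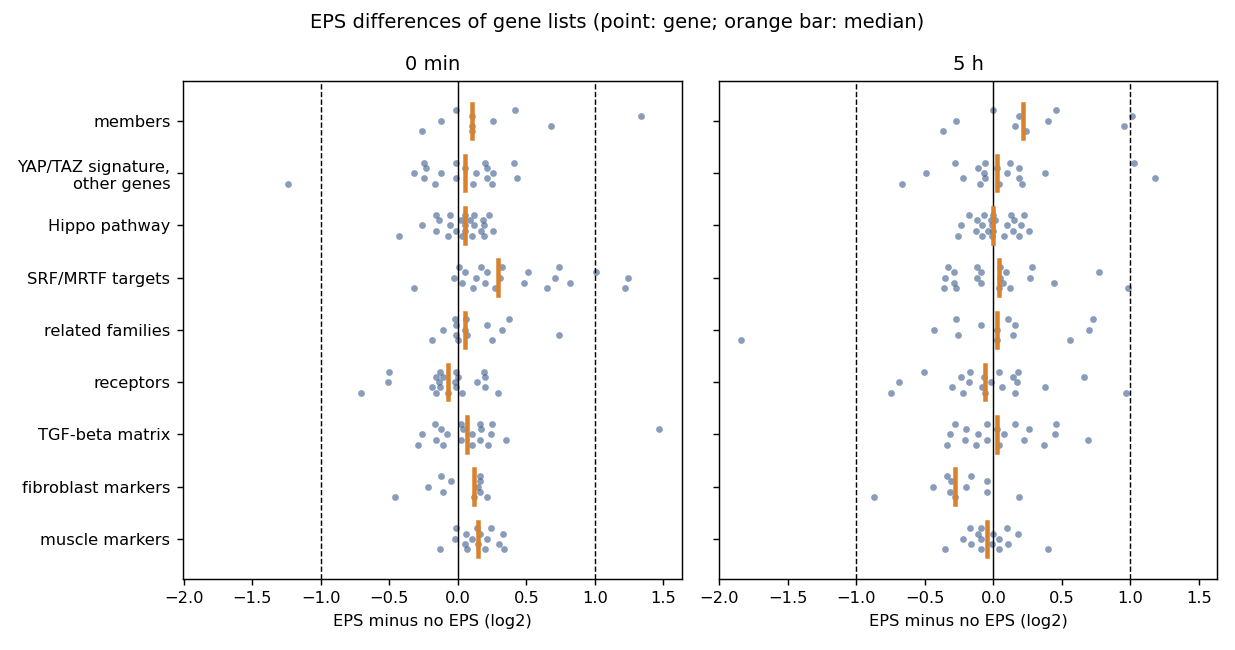
Differences of levels with EPS minus without EPS (log2) at 0 min and 5 h for the members and for related gene lists, 1 point per measured gene, with the list's median as an orange bar and 2-fold as dashed lines. The median of SRF and MRTF targets stands at 0.29 at 0 min and 0.04 at 5 h, and that of fibroblast markers at 0.12 and -0.28.

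Fibroblasts are a main source of several of these proteins, so their markers are set beside the members. Fibroblast markers had a median EPS difference of 0.12 at 0 min (6 of 11 above 0) and of -0.28 at 5 h (10 of 11 below 0). Of all genes 54.5% lay above 0 at 0 min and 43.4% at 5 h. The log2 of the markers' summed level was 8.82 and 8.96 at 0 min and 8.70 and 8.52 at 5 h, without and with EPS. Thy1 was not well above background on any array. The largest differences at 5 h were those of Pdgfrb (-0.87) and Tcf7l2 (-0.44, or -1.18 with the mean of its probes). The collagen genes Col3a1 and Col1a2 stood at -0.34 and -0.32. Under quantile normalization Col3a1 was at -0.22, within the spot error, and Col1a2 at -0.29. Among the members beyond the spot error at 5 h, Ctgf, Tnc, Thbs1 and Amotl2 were higher with EPS. Nov and, by a narrow margin, Sparc were lower. Of all genes at 5 h, 15.73% lay below the difference of Sparc and 89.62% below that of Cyr61 (0.24), just within the error. Skeletal muscle markers had medians of 0.14 and -0.05. Smooth muscle and pericyte markers had medians of 0.21 and 0.17 (5 of 7 measured), with calponin (Cnn1), dim, at 0.82 and 0.98, and 0.29 at 5 h under normexp. The median at 5 h is the value of Mcam, which was 0.92 with the mean of its probes. Few markers of other cell types were measured: endothelial ones had medians of 0.13 and -0.24 (3 of 7), leukocyte ones -0.15 at both times (4 of 8, with the macrophage marker Cd68 at -1.33 at 0 min, or -0.58 under normexp), adipocyte ones 0.49 and 0.11 (2 of 6) and neuron and Schwann cell ones -0.34 (4 of 8) and -0.23 (5 of 8). The part of cell makeup in the members' differences was not tested.

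The genes whose levels were most like those of 4 members were found by the root mean square distance over the 4 arrays after each gene's own mean was subtracted, among 12731 genes. Nearest to Cyr61 were Fos (0.178), Sh3rf2 (0.239), Egr2 (0.286), Rwdd2a (0.296) and Dusp2 (0.317). Fos had levels of 0.16 without EPS and 1.40 with EPS at 0 min and of -1.93 and -1.84 at 5 h, so its 5 h arrays, too, lay close together. Nearest to Ctgf were Fosb (0.202), Caps2 (0.253), Mab21l3 (0.287), Angpt2 (0.294) and Hdac9 (0.315). Fosb levels were -1.88 and -0.66 at 0 min and -3.34 and -2.56 at 5 h, without and with EPS. Nearest to Tnc, taken by probe A alone, were Serpind1 and Erfe (0.033 each), Hoxb4 (0.053), Galnt12 (0.073) and Recql4 (0.080). These neighbours were dim, with levels from -5.50 (Galnt12) to -2.13 (Recql4), and the search was not run for probe B. Nearest to Thbs1 were Itgb2 (0.028), Sox9 (0.038), Zfp518a (0.041), Tonsl (0.046) and Col26a1 (0.051). Several neighbours of Cyr61, Ctgf and Thbs1 were dim too. On the unstimulated 5 h array the levels were -5.74 for Sh3rf2 and -4.96 for Rwdd2a, near Cyr61. Near Ctgf they were -5.61 for Caps2, -5.85 for Mab21l3, -5.83 for Angpt2 and -5.61 for Hdac9. Near Thbs1 they were -4.94 for Zfp518a and -5.51 for Col26a1. Nearness over 4 arrays describes these arrays alone.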

How the data were processed

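Total RNA was labelled with Cy3 and hybridised to 4 single-colour Agilent arrays of 1 slide. Titles and extraction protocol name engineered muscle, but the text on labelling speaks of RNA from leukocytes. Agilent Feature Extraction 10.7.3.1 wrote the intensity of each spot, per the file headers, with background subtracted and the array detrended. The deposited value table held the same intensities within a relative 1e-05 (44397 of 44397 on each array; medians 75.2, 64.0, 57.6 and 69.4), so it is linear, uncentred and unscaled.

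Levels are log2 intensities minus the 75th percentile of 43020 non-control spots. Between 112 and 141 outlier spots per array were left out, and 0 were saturated. The brightest probe stands for a gene. Names come from the files, updated by accession through RefSeq (GRCm38.p6) for 26055 of 39429 probes. A 2-fold rule among genes well above background on the arrays compared took the place of a test. Precision is limited by 1 array per group. The functions were checked on simulated data. Members and lists were chosen with earlier results of these data known. Named genes are all members, list genes at 2-fold in an EPS comparison, otherwise up to 4 per list, and the 5 genes nearest to 4 members. One gene that this rule names is not reported here. Alternatives, tried in Python 3.11.15 and limma 3.58.1, were normexp background correction (offset 50), quantile normalization, median centring, 2 other filters, the mean of probes and keeping outlier spots.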

Additional observations from a re-analysis of the deposited data

Results flagged for a closer look

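The EPS difference had opposite signs at 0 min and 5 h for 4 members. The share of all genes with opposite signs was not counted, so this count has no background beside it. Over all genes 54.5% lay above 0 at 0 min and 43.4% at 5 h. The difference between the times was not tested, since each rests on 1 array per group. For Tnc it was -0.12 at 0 min and 1.01 at 5 h, a difference of 1.13, and the value at 5 h exceeded the spot error. The opposite sign held for probe A of Tnc, whereas probe B had 0.05 and 1.60, both above 0. For Sparc it was 0.10 and -0.27, a difference of -0.37, with the value at 5 h at the edge of the spot error. Under quantile normalization Sparc stood at -0.10 at both times, and its dimmer probe at -0.03 and -0.17, so neither had opposite signs. For Postn it was -0.01 and 0.19, a difference of 0.20, with both values within the spot error. For Thbs2 it was 0.10 at 0 min and below 0 at 5 h by 0.01 times the spot error, a difference of -0.10.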

How the results depend on the processing

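Under the 7 alternatives, the count of members at least 2-fold different stayed within 1.5 times its value in the 5 comparisons except under normexp background correction, which gave 0 instead of 1 for EPS at 5 h and 1 instead of 2 for the difference of EPS effects; Tnc then stood at 0.78 and 0.84. No 2-fold difference changed sign. Of 350 member values, 5 moved by more than the 95th percentile of spot error: 3 with the mean of probes, 1 under normexp and 1 under quantile normalization. Many of the 350 could not move. The other filters and keeping outlier spots left every member unchanged, since all member probes passed the background test and none was an outlier. The mean of probes could change only Tnc and Sparc, the members with more than 1 probe. Ranges over the alternatives were 1.24 to 1.35 for Cyr61 with EPS at 0 min, 0.95 to 0.96 for Ctgf and 0.78 to 1.30 for Tnc with EPS at 5 h. Over all genes, normexp gave 71, 74, 412, 596 and 107 genes at 2-fold for EPS at 0 min, EPS at 5 h, time without EPS, time after EPS and the difference of EPS effects, against 249, 225, 869, 1115 and 361; without a background filter they were 2246, 2530, 3111, 3937 and 3978. No paired analysis was possible because each group has 1 array. With 1 array per group no array could be left out.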
